A study of Mus musculus with 4 samples.

Results

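Immunoglobulin variable (V) segment usage was described in RNA-seq counts of osteoclast precursor cells, myeloid cells from which the multinucleate cells that resorb bone are formed. The genes described were chosen by their measured counts: those named Ighv (heavy chain) or Igkv (kappa light chain) whose counts summed over the 4 libraries reached 40. This held for 181 of 345 such names and of 53801 genes in the count table, 95 of 185 Ighv and 86 of 160 Igkv names. Of the other 164 names, 123 had 0 counts in every library. The cells came from wild-type C57BL/6 mice, 2 in number per the labels, and carried no engineered allele. Cells numbered 2 and 1 in the labels, each number taken here as 1 preparation given both treatments (preparation 2 and preparation 1), received DKK1 (Dickkopf-1, a secreted inhibitor of Wnt signalling; 200 ng/ml) or PBS, the saline control, over 3 h. This gave 4 libraries of 41163663 to 53537927 counts, DKK1 and PBS of preparation 2 and DKK1 and PBS of preparation 1. No source states that either preparation was repeated, so p-values between preparations compare these 2 preparations only.

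V segments are germline gene segments, 1 of which is joined to a J segment (and in the heavy chain to a D segment) in each developing B cell to form the variable domain of an antibody chain. B cells and, at much higher levels, antibody-secreting plasma cells transcribe the joined segment together with a constant region. Myeloid cells such as osteoclast precursors are not known for rearranging these loci.

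The ends of the V models where the join is made are shown for the 5 Ighv and the 5 Igkv members with the most counts, because they lead the usage of preparation 2 by counts and show how alike the segments are. Each line gives the last 60 bases of the GENCODE M21 model (GRCm38, the same assembly as the submitters' mm10), 5′ to 3′ on the coding strand. Capitals mark the codons for tyrosine, tyrosine or phenylalanine, and cysteine that close the framework before the join, found as the last match to TANTNNTGN in this window on the coding strand.
Ighv1-64, chr12:115507545-115507604, minus strand: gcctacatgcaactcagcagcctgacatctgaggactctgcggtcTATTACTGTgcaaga
Ighv9-3, chr12:114140692-114140751, minus strand: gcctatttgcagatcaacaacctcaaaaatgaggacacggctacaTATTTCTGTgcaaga
Ighv1-55, chr12:115208095-115208154, minus strand: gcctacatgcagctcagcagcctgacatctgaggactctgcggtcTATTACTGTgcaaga
Ighv1-26, chr12:114788372-114788431, minus strand: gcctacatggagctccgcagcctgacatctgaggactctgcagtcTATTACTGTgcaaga
Ighv3-6, chr12:114288152-114288211, minus strand: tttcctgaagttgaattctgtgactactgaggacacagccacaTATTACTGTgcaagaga
Igkv10-96, chr6:68631963-68632022, minus strand: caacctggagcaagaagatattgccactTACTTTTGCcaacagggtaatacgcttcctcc
Igkv16-104, chr6:68426013-68426072, plus strand: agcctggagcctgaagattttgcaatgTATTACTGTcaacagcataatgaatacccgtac
Igkv8-21, chr6:70314895-70314954, minus strand: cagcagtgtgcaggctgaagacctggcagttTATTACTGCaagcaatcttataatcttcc
Igkv1-110, chr6:68271208-68271267, plus strand: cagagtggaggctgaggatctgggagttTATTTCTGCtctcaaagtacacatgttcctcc
Igkv12-44, chr6:69814631-69814690, minus strand: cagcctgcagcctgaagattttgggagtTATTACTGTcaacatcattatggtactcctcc

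A match to this pattern was found in the 60-base window of 178 of 181 members (98.3%), in 105 of the 164 names under the threshold (64.0%) and in 283 of all 345 models (82.0%). The pattern is wider than the codons named above. In 1 Igkv member it matched TATTGCTGG, whose last 2 codons are not those named. In the heavy chain locus the commonest match, TATTACTGT, ended 56 of 95 members, and in the kappa locus the same form ended 36 of 86. The windows of Ighv1-64 and Ighv1-55 differ at 1 base, and the window of Ighv1-55 is common to 7 models, its own included. Of the 181 members, 39 (21.5%) have a window equal to that of another V model, and 100 have another V model at 95% identity or more over at least 200 bases. How the counting divided reads between such models is not given in the sources used here, so the split between near-identical segments is uncertain; a sum over a family or locus does not depend on a split within it. Among the members 1 overlaps an exon of another gene (Igkv2-137, with Gm42889). Annotation calls 176 of them IG_V_gene and 5 IG_V_pseudogene. For comparison with the leading Ighv1 members, 2 further ends are shown that were chosen after their values were seen: Ighv1-62-3, whose window equals that of Ighv1-55, and the pseudogene Ighv1-14.
Ighv1-62-3, chr12:115460999-115461058, minus strand: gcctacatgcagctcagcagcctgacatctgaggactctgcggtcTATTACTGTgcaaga
Ighv1-14, chr12:114646572-114646631, minus strand: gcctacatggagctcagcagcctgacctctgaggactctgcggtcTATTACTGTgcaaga

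V segment counts were high in preparation 2 and low in preparation 1, under either treatment. The 95 Ighv members summed to 2375 CPM (counts scaled to library size) in the DKK1 and 2430 CPM in the PBS library of preparation 2. They summed in preparation 1 to 14.5 CPM with DKK1 and 24.3 CPM with PBS. The 86 Igkv members summed to 2387 CPM with DKK1 and 2398 CPM with PBS in preparation 2. Their sum in preparation 1 was 29.8 CPM with DKK1 and 35.8 CPM with PBS. V members made up 0.476% and 0.483% of all counts in preparation 2 (DKK1, PBS), against 0.00443% and 0.00601% in preparation 1. Both libraries of preparation 2 lay above both of preparation 1 for either sum. In edgeR the Ighv sum was 143-fold higher in preparation 2 (log2 7.16, SE 0.17, adjusted p = 3.85e-06) and the Igkv sum 82.7-fold higher (log2 6.37, SE 0.08, adjusted p = 5.44e-07). Of the 17286 rows of that summed table, 33.7% were called between the preparations. In bulk RNA, fewer cells of a type and less RNA per cell cannot be told apart. The threshold itself leans on preparation 2: 178 members reach 40 counts there alone and 51 in preparation 1 alone.

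**Figure D1:**
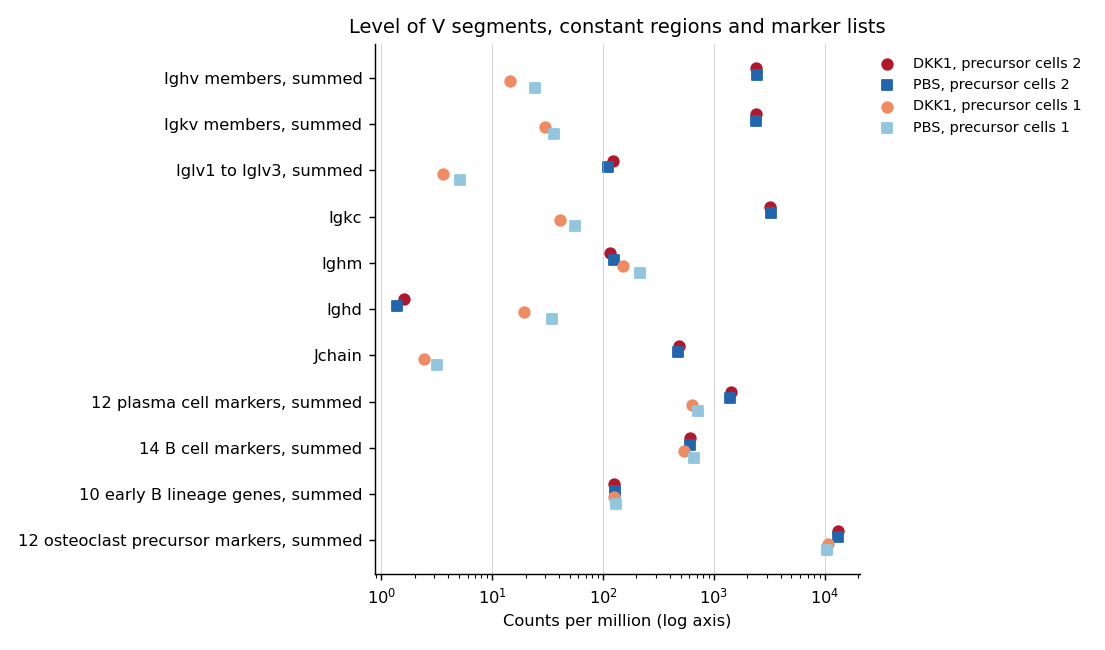
Level in CPM (log axis) of the summed Ighv and Igkv members, the lambda V segments, 4 genes of antibody chains and 4 summed marker lists, with 1 point per library (circles DKK1, squares PBS). Ighv, Igkv, Igkc and Jchain lie far higher in both libraries of precursor cells 2, while Ighd lies lower and the osteoclast precursor markers lie within 10581 to 13138 CPM in every library.

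The ratio of heavy to kappa V counts was 0.995 with DKK1 and 1.01 with PBS in preparation 2. It was 0.488 with DKK1 and 0.677 with PBS in preparation 1, so Igkv counts outnumbered Ighv counts there. The kappa V counts ran parallel to those of the kappa constant region gene Igkc. There were 73.9 and 73.1 Igkv counts per 100 Igkc counts in preparation 2 (DKK1, PBS) and 72.1 and 63.7 in preparation 1 (DKK1, PBS). The heavy chain differed, with 34.5 and 33.6 Ighv counts per 100 heavy constant region counts in preparation 2, against 7.63 and 8.95 in preparation 1. Ighm and Ighd, the constant regions of the IgM and IgD classes that naive B cells carry, held 1.68% and 1.76% of the heavy constant counts in preparation 2 (DKK1, PBS). Their share in preparation 1 was 89.5% and 91.6% (DKK1, PBS). Of the 12 constant region genes 9 rose in preparation 2 and 2, Ighm and Ighd, fell, where 17.9% of all genes tested rose and 15.9% fell. The lambda segments Iglv1, Iglv2 and Iglv3 held 4.95% and 4.41% of the light chain V counts in preparation 2, against 10.8% and 12.5% in preparation 1, and each of the 3 rose in preparation 2.

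Marker genes of several cell types moved with the preparation. Of 12 plasma cell markers, 8 rose and 1 fell in preparation 2 relative to 1, with summed levels of 1439 and 1388 CPM against 632 and 723 CPM. The 3 most abundant, Jchain, Slamf7 and Sdc1, held 1003 and 1014 CPM of the sum in preparation 2, against 286 and 295 CPM in preparation 1. Of these, Sdc1 was not called (149 and 171 CPM against 178 and 193 CPM). The other 9, of which 6 rose and 1 fell, had summed levels that overlapped (436 and 374 CPM against 346 and 428 CPM). Jchain, which links IgA and IgM units, had 484 and 473 CPM in preparation 2 (DKK1, PBS) and 2.41 and 3.17 CPM in preparation 1 (log2 7.59, edgeR adjusted p = 2.34e-06). Tnfrsf17, the plasma cell receptor BCMA, had 32 and 34 counts in preparation 2 and was at 0 in both libraries of preparation 1. Of 14 B cell markers, 3 rose and 11 fell in preparation 2, and their summed levels overlapped (615 and 612 CPM against 539 and 655 CPM). The 3 that rose, Cd72, Cd37 and Cd22, are the most abundant and hold 582 and 580 CPM of the sum in preparation 2, against 380 and 407 CPM in preparation 1. The other 11, all of which fell, summed to 32.1 and 32.1 CPM in preparation 2, against 159 and 248 CPM in preparation 1. Of 9 tested early B lineage genes, 1 rose and 5 fell, with summed levels of 125.6 and 127.9 CPM in preparation 2 and 125.5 and 131.8 CPM in preparation 1, mostly from Il7r and Myb. Rag1, a subunit of the V(D)J recombinase, had 8 and 0 counts in preparation 2 (DKK1, PBS) and 756 and 1047 in preparation 1 (DKK1, PBS). Across all 17462 genes tested 17.9% rose and 15.9% fell. All 12 osteoclast precursor and monocyte markers (13 gene IDs, since Itgam has 2) were detected in every library, 5 IDs rose and 2 fell, and the list had summed levels of 13092 and 13138 CPM in preparation 2 and 10693 and 10581 CPM in preparation 1. Csf1r, the receptor for the growth factor that sustains these cells, had 2450 and 2419 CPM in preparation 2, against 2087 and 2157 CPM in preparation 1. Of the 8 neutrophil markers, Ngp and S100a9 the most abundant, all rose, with summed levels of 8540 and 8268 CPM in preparation 2, against 4966 and 5021 CPM in preparation 1. Of 6 erythroid markers 5 rose (118 and 151 CPM against 78.1 and 111 CPM), and of 8 T cell markers 1 rose and 1 fell (29.2 and 28.4 CPM against 19.1 and 19.3 CPM). Of the 3 octamer-binding factor genes, whose products act on V promoters, Pou2af1 fell (log2 -1.25) and none rose. The part of these genes in the V segment levels was not tested.

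Usage was then read as the share of each segment family in the member counts of its locus. The members fell into 14 Ighv and 17 Igkv families, the family being the number before the hyphen. Shares were not scaled to the number of members of a family. Ighv1, the largest mouse heavy chain family, with 50 of the 95 Ighv members, led in every library. It held 63.4% with DKK1 (95% Wilson interval 63.1 to 63.7) and 63.2% with PBS (62.9 to 63.5) in preparation 2. Its share in preparation 1 was 44.1% with DKK1 (40.6 to 47.6) and 49.8% with PBS (47.1 to 52.5). These intervals cover counting error only. Dividing counts by exon length changed the Ighv1 share little, to 62.9%, 62.7%, 42.7% and 49.1% in the same order.

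The families behind Ighv1 were ordered differently in the 2 preparations. Ighv9 held 7.42% and 7.49% in preparation 2 (DKK1, PBS), against 0.77% and 2.40% in preparation 1. Ighv5 held 6.93% and 7.35% in preparation 2, against 3.34% and 2.32% in preparation 1. Ighv2 ran the other way, with 3.45% and 3.36% in preparation 2 and 15.7% and 8.37% in preparation 1. Ighv7 likewise held 1.39% and 1.44% in preparation 2 and 6.68% and 6.04% in preparation 1. Ighv14 held 2.83% and 2.81% in preparation 2, against 6.43% and 7.90% in preparation 1. Ighv8 held 5.06% and 5.16% in preparation 2, against 9.25% and 8.37% in preparation 1, where it equalled Ighv2 with PBS. For 11 of the 14 Ighv families both shares of preparation 2 lay above (5 families) or below (6 families) both of preparation 1. Shares were compared here without their intervals, and no such count was made over other genes. Ighv10 counted as higher at 0.95% (PBS, preparation 2) against 0.90% (DKK1, preparation 1, interval 0.44 to 1.85), and Ighv13 had 0 counts in preparation 1. With 2 against 2 libraries the smallest exact two-sided permutation p is 0.333, so no test was made. By level, 33.6% of all rows of the table with summed families were called between preparations.

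In the kappa locus no family held more than 20.3% of the counts. Igkv6 and Igkv4, with 9 and 22 of the 86 Igkv members, led in preparation 2. Igkv6 held 13.3% and 13.8% there (DKK1, PBS), and Igkv4 held 12.6% and 12.7%. Igkv6 in preparation 1 held 11.3% with DKK1 and 16.6% with PBS, and Igkv4 held 13.4% with DKK1 and 20.3% with PBS. Igkv16, a family of 1 segment, held 5.53% and 5.58% in preparation 2, against 1.63% and 1.36% in preparation 1. Igkv19, also of 1 segment, held 0.90% and 0.78% in preparation 2, against 3.64% and 1.89% in preparation 1. For 14 of the 17 Igkv families both shares of preparation 2 lay above (8 families) or below (6 families) both of preparation 1, again compared without their intervals. Some of these lay very close. Igkv2 counted as lower at 3.633% (PBS, preparation 2) against 3.639% (DKK1, preparation 1, interval 2.83 to 4.67). Igkv17 counted as higher at 4.210% against 4.203% (DKK1 of preparations 2 and 1, the latter with interval 3.32 to 5.30). Igkv11 had 0 counts in preparation 1.

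**Figure D2:**
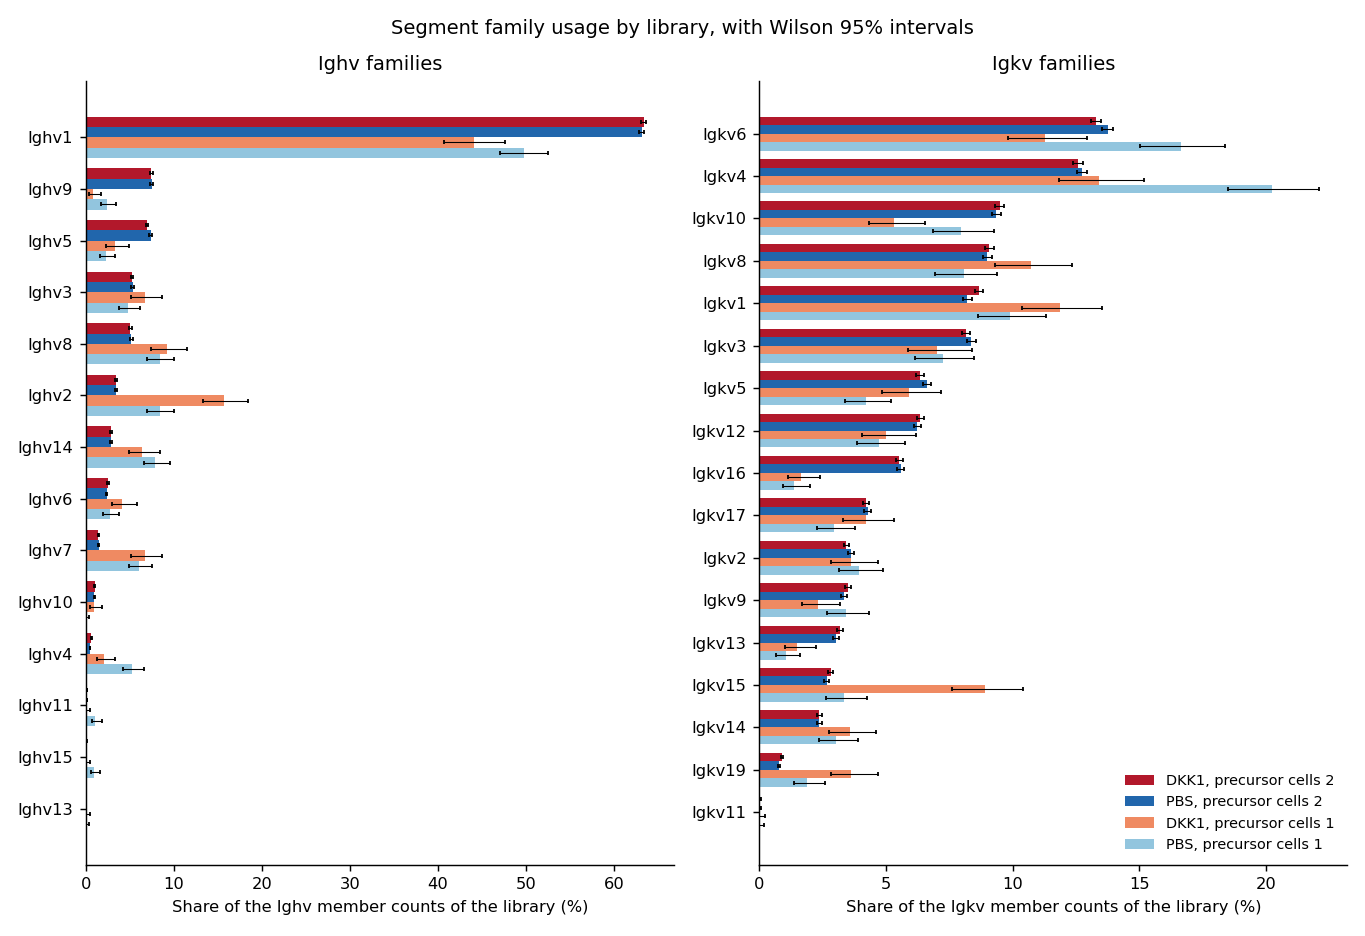
Share of each V segment family in the member counts of its locus (percent) in each of the 4 libraries, with bars for libraries and lines for Wilson 95% intervals. Bars of DKK1 and PBS nearly coincide in precursor cells 2, while the bars of precursor cells 1 have wide intervals and differ more between treatments.

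Between DKK1 and PBS the family shares moved little in preparation 2 and more in preparation 1. In preparation 2 the difference of DKK1 minus PBS ran from -0.42 (Ighv5) to 0.21 (Ighv1) percentage points over the Ighv families and from -0.44 (Igkv6) to 0.45 (Igkv1) over the Igkv families. In preparation 1 it ran from -5.72 (Ighv1) to 7.32 (Ighv2) points over the Ighv families and from -6.83 (Igkv4) to 5.55 (Igkv15) over the Igkv families. In preparation 2, 5 of 31 families had intervals that did not overlap between the treatments (Ighv4, Igkv1 and Igkv19 higher with DKK1, Ighv5 and Igkv6 lower). In preparation 1, 11 of 31 did, among them Ighv2 and Igkv15 higher and Igkv4 and Igkv6 lower with DKK1. The intervals cover counting error only, and segment counts of these pairs differed by more than independent counting would give. Intervals that lie apart thus do not show a difference between treatments, and no such count was made over other genes. Ighv4 had opposite directions in the 2 preparations. With the members summed into families, 0 of 31 families were called between DKK1 and PBS by edgeR (0 also at an unadjusted p under 0.05, and 0 by DESeq2 and limma-voom, with 1 and 0 at an unadjusted p under 0.05), where 0.0635% of 17315 rows were called.

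The single segments that led each locus differed between the preparations. Ighv1-64 had the most Ighv counts in preparation 2, 10709 with DKK1 and 10432 with PBS, or 9.80% and 10.4% of the locus. It had, in preparation 1, 23 counts with DKK1 and 25 with PBS. Its level per length was 575 and 626 CPM per kb in preparation 2 (DKK1, PBS), against 1.06 and 1.16 in preparation 1, a fold of 541 between the preparation means. Per kb it stood at rank 1 of 95 in preparation 2 and rank 19 in preparation 1.

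Ighv9-3 came next in preparation 2, with 7050 and 6577 counts (DKK1, PBS), and had 0 and 10 in preparation 1 (DKK1, PBS). Ighv1-55 had 6354 and 5601 counts in preparation 2, and 0 and 8 in preparation 1. Ighv1-26 had 5397 and 5274 counts in preparation 2, and 14 and 41 in preparation 1. The DKK1 library of preparation 1 thus had no count of Ighv9-3 or Ighv1-55, the segments next to Ighv1-64 in preparation 2. Ighv3-6, Ighv8-12, Ighv1-53, Ighv1-82, Ighv1-80 and Ighv1-9 made up the rest of the 10 leading Ighv members, with 2774 to 3949 counts per library in preparation 2 and 0 to 45 in preparation 1.

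In preparation 1 the leading Ighv segment was Ighv2-2 with DKK1 (55 counts, 7.07%, Wilson interval 5.47 to 9.09) and Ighv14-2 with PBS (95 counts, 7.36%, 6.06 to 8.91). Ighv2-2 had 1482 and 1188 counts in preparation 2 (DKK1, PBS) and 55 and 35 in preparation 1. Ighv14-2 had 1105 and 925 counts in preparation 2 and 43 and 95 in preparation 1. Their folds between the preparation means, 36.2 for Ighv2-2 and 18.0 for Ighv14-2, were below that of the Ighv sum. Of the 10 leading Ighv segments per library, 10 were shared by DKK1 and PBS in preparation 2 and 6 in preparation 1, and 1 to 2 were shared across preparations.

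Igkv10-96 led the kappa locus in preparation 2, with 8398 counts with DKK1 (7.65%) and 7254 with PBS (7.35%), and again in the PBS library of preparation 1 (106 counts, 5.56%). Its DKK1 library of preparation 1 had 64 counts. Per length it stood at 508 and 491 CPM per kb in preparation 2 and at 3.33 and 5.55 in preparation 1. Igkv16-104 had 6076 and 5505 counts in preparation 2 (DKK1, PBS), and 26 and 26 in preparation 1. Igkv8-21 had 5538 and 4854 counts in preparation 2, and 8 and 24 in preparation 1. Igkv10-96 thus kept a leading place in both preparations, at rank 1 per kb in preparation 2 and rank 3 in preparation 1, whereas Igkv16-104 stood at rank 2 in preparation 2 and rank 27 in preparation 1.

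Igkv15-103, the only member of its family, led the DKK1 library of preparation 1 with 142 counts (8.91%, 7.61 to 10.4) against 64 with PBS (3.36%). In preparation 2 it had 3090 counts with DKK1 and 2634 with PBS, 2.81% and 2.67%. Igkv1-117 had 133 counts with DKK1 and 94 with PBS in preparation 1, and 3005 and 2676 in preparation 2. Per kb it stood at rank 11 in preparation 2 and rank 1 in preparation 1. Igkv6-15 had 3164 and 2868 counts in preparation 2 and 4 with DKK1 and 0 with PBS in preparation 1. Igkv1-110, Igkv12-44, Igkv6-23 and Igkv5-39 completed the 10 leading Igkv members, with 2627 to 3647 counts per library in preparation 2 and 18 to 85 in preparation 1. Of the 10 leading Igkv segments, 10 were shared by DKK1 and PBS in preparation 2, 6 in preparation 1, and 4 to 5 across preparations.

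Usage was spread over many segments in every library. The effective number of segments, the inverse of the summed squared shares, was 30.9 with DKK1 and 29.9 with PBS for Ighv in preparation 2. The Ighv values in preparation 1 were 29.7 with DKK1 and 37.2 with PBS. For Igkv it was 38.1 with DKK1 and 38.8 with PBS in preparation 2, and 30.5 with DKK1 and 40.2 with PBS in preparation 1. The DKK1 library of preparation 1 was thus below its PBS library for both loci, while those of preparation 2 lay close together. Thinned to the smallest member total of each locus (778 Ighv and 1594 Igkv counts), the values were 29.8, 28.8, 29.7 and 36.5 for Ighv and 37.2, 37.9, 30.5 and 40.04 for Igkv, in the order DKK1 then PBS of preparation 2, then of preparation 1. With 2 libraries per treatment the smallest exact two-sided permutation p is 0.333, so no test was made.

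The 10 leading Ighv segments held 46.8% of the Ighv counts with DKK1 and with PBS in preparation 2. Their counterparts in preparation 1 held 47.7% with DKK1 (Wilson interval 44.2 to 51.2) and 37.7% with PBS (35.1 to 40.4). For Igkv they held 38.6% with DKK1 and 37.8% with PBS in preparation 2, and 45.0% with DKK1 and 39.1% with PBS in preparation 1. Fewer members had any count in preparation 1, with 112 of 181 under DKK1 and 127 under PBS, against 179 and 180 in preparation 2. The choice of members leans the same way, since 178 of them reach the threshold in preparation 2 alone. V member counts were also fewer in preparation 1, at 2372 and 3197 (DKK1, PBS) against 219099 and 198707. The part of each in this order was not tested.

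**Figure D3:**
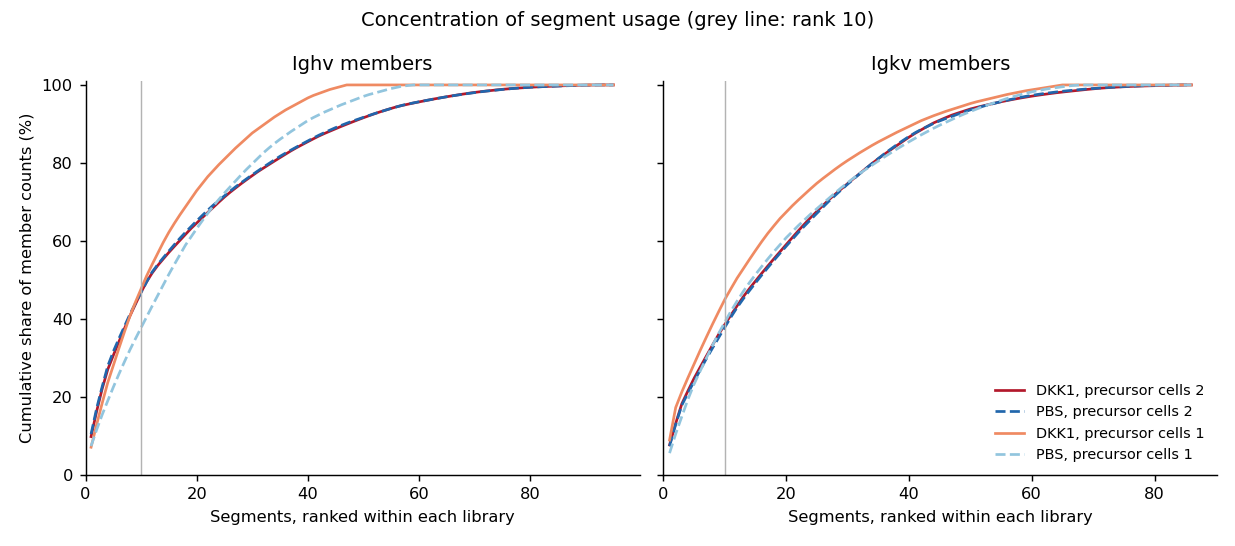
Cumulative share of the member counts (percent) against the rank of the segment within each library, for the Ighv and the Igkv members, with 1 line per library (solid DKK1, dashed PBS). The lines of precursor cells 2 coincide, with 12 Ighv and 16 Igkv segments reaching 50%, and those of precursor cells 1 end after 47 and 59 Ighv and 65 and 68 Igkv segments.

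Libraries of the same number were more alike in usage than those of different number, by a wide margin in the heavy chain locus and by less in the kappa locus. Across the 95 Ighv members, log2(CPM + 1) correlated between DKK1 and PBS with a Pearson r of 0.993 (Spearman 0.992) in preparation 2 and 0.775 (0.733) in preparation 1. Across the 86 Igkv members the values were 0.992 (0.993) in preparation 2 and 0.758 (0.752) in preparation 1. Between libraries of different number r lay between 0.152 and 0.189 for Ighv and between 0.539 and 0.585 for Igkv. The points of these correlations are segments that share libraries, depth and sequence, so they describe these libraries and no p is given. They also depend on the choice of members, most of which met the threshold through preparation 2. Of the members, 31 Ighv and 13 Igkv were at 0 in both libraries of preparation 1 and enter as such. The median count per member there was 0 to 16 by locus and library, low against the 1 CPM added before the log. The effect of these points on r was not tested.

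The usage shared by 2 libraries was taken as the sum, over members, of the smaller of their shares. DKK1 and PBS shared 96.0% of Ighv and 96.5% of Igkv usage in preparation 2. They shared, in preparation 1, 69.0% of Ighv and 70.0% of Igkv usage, with 778 to 1906 counts per locus and library. Libraries of different number shared 40.3 to 44.7% of Ighv and 59.9 to 64.6% of Igkv usage, whether the treatments were the same or not. The DKK1 and PBS counts of a pair still differed by more than independent counting would give, with a chi-square per degree of freedom of 6.50 for Ighv and 6.18 for Igkv in preparation 2, and of 5.19 and 6.54 in preparation 1. Among the 69 Ighv members with at least 400 counts in the pair of preparation 2, the log2 ratio of shares had an SD of 0.19 and ran from -0.47 (Ighv14-4) to 0.43 (Ighv4-1). Among the 65 such Igkv members the SD was 0.19 and the range -0.50 (Igkv4-61) to 0.45 (Igkv5-45).

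**Figure D4:**
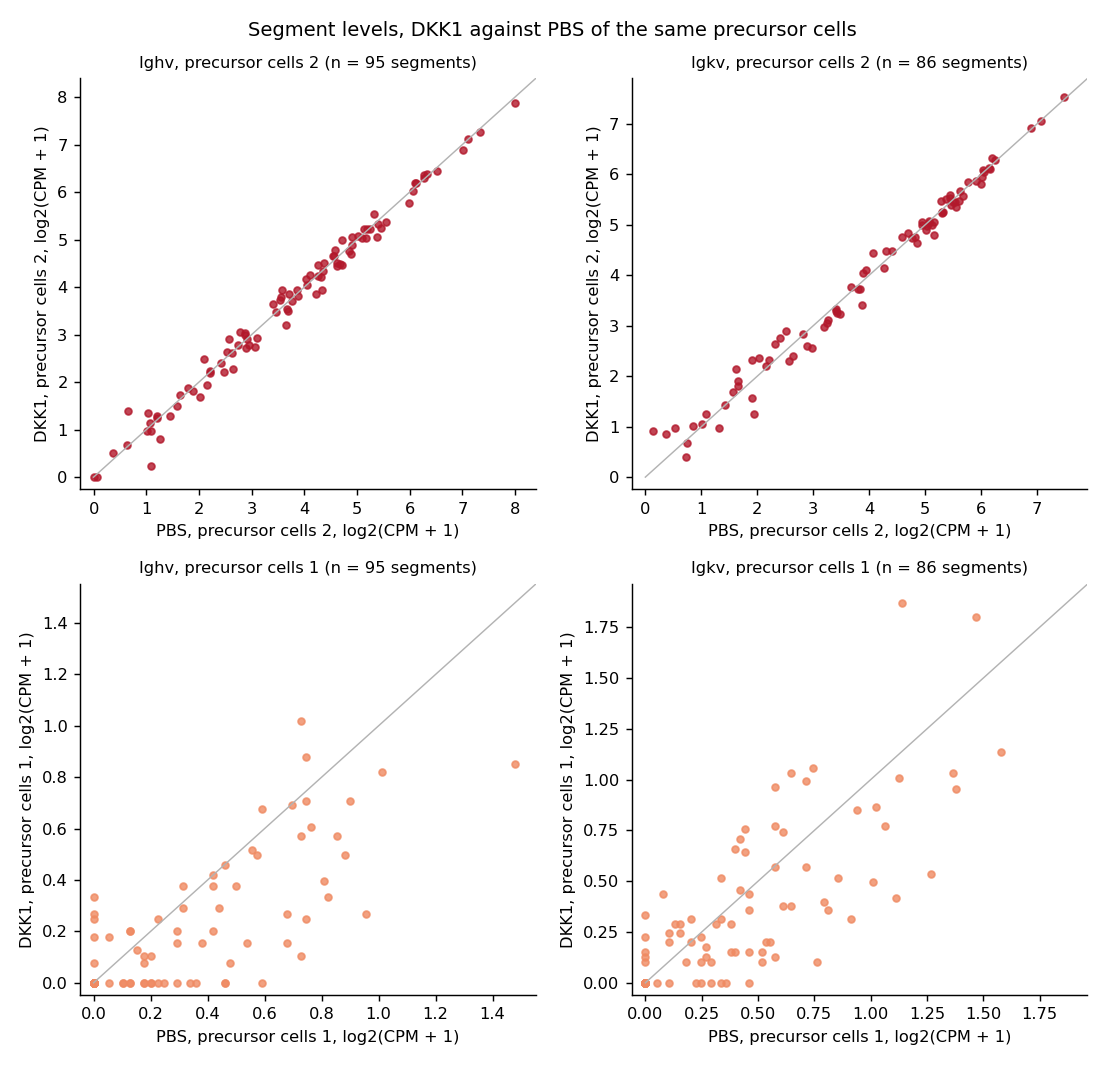
Level of each segment, log2(CPM + 1), in the DKK1 library (vertical axis) against the PBS library (horizontal axis) of the same precursor cells, with 1 point per segment and the line of equality in grey. Points of precursor cells 2 follow the line closely, and points of precursor cells 1 lie below 2 log2 units and scatter, many of them at 0.

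For DKK1 against PBS, 178 of the 181 members passed edgeR's filter on low counts and were tested. None was called in either direction (0 of 178), where 0.0515% of the 17462 genes tested were called. At an unadjusted p under 0.05 there were 2 members (1.12%), against 4.47% of all genes tested. DESeq2 and limma-voom called 0 as well, each with 2 at an unadjusted p under 0.05. The median log2 change of the tested members was -0.05, beside -0.0015 for all genes tested.

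The 2 members with the smallest p in each direction were Igkv6-17 and Igkv4-61 (lower with DKK1) and Ighv2-6-8 and Igkv6-14 (higher). Igkv6-17 had 1229 counts with DKK1 and 1432 with PBS in preparation 2, and 5 with DKK1 and 26 with PBS in preparation 1 (log2 -0.44, edgeR adjusted p = 0.959). Igkv4-61 had 443 counts with DKK1 and 562 with PBS in preparation 2, and 4 and 23 in preparation 1 (log2 -0.58, adjusted p = 0.959). Both were lower with DKK1 in each preparation, which a choice by the smallest p in this fit favours. Ighv2-6-8 had 74 counts with DKK1 and 24 with PBS in preparation 2 and 0 in preparation 1 under both treatments (log2 1.45, adjusted p = 0.959). Igkv6-14 had 956 counts with DKK1 and 647 with PBS in preparation 2, and 26 and 34 in preparation 1 (log2 0.33, adjusted p = 0.959).

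The sums over each locus did not pass the test with DKK1 either, where 0.081% of the rows of that table were called. The Ighv sum had a log2 change of -0.31 (SE 0.14, edgeR adjusted p = 0.954), with log2 ratios of CPM of -0.03 in preparation 2 and -0.74 in preparation 1. The Igkv sum had a log2 change of -0.12 (SE 0.06, adjusted p = 0.954), with -0.01 in preparation 2 and -0.27 in preparation 1. Member by member, 86 had a higher and 94 a lower CPM with DKK1 in preparation 2, and 39 a higher and 98 a lower CPM in preparation 1, where 44 were at 0 in both libraries. Beside this, the 14 B cell markers, of which 0 were called with DKK1, summed to 539 CPM with DKK1 and 655 CPM with PBS in preparation 1, and to 615 and 612 CPM in preparation 2. Without Cd72, Cd37 and Cd22 they summed to 159 CPM with DKK1 and 248 CPM with PBS in preparation 1, and to 32.1 and 32.1 CPM in preparation 2. Their part in the V segment values was not tested.

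The authors' deposited tables set each DKK1 library against the PBS library of the same number, 1 library against 1. The authors' deposited table for preparation 2 lists 165 members and calls 1 of them, Igkv4-51, lower (log2 ratio -1.01, FDR 2.31e-04), where 0.987% of its 13175 genes are called. A call there does not rest on the FDR alone. Igkv6-17 (log2 ratio -0.38) and Igkv4-61 (-0.51) have lower FDRs in that comparison than Igkv4-51 and are not called. Further members with a low FDR, in either direction, are not called either. In the counts Igkv4-51 had 64 with DKK1 and 116 with PBS in preparation 2, and 10 with DKK1 and 4 with PBS in preparation 1. The authors' deposited table for preparation 1 lists 5 members and calls 1, Igkv15-103, higher (log2 ratio 1.13, FDR 6.34e-06), where 0.921% of its 13253 genes are called. For Igkv15-103 the authors' deposited table for preparation 2 gives a log2 ratio of 0.07 (FDR 0.664). Neither segment was called in the fit over both pairs.

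Between the preparations, 175 of 178 tested members were higher in preparation 2 and 1 was lower, where 17.9% of all genes tested were higher and 15.9% lower. Since most members met the threshold through preparation 2, this count follows in part from the choice of members. With members summed into families, all 31 families were higher (17.5% of the rows of that table were), with log2 changes from 3.67 (Ighv15) to 9.18 (Ighv9). Ighv1 had a log2 change of 7.56 (SE 0.20) and Ighv2 one of 5.42 (SE 0.12); whether families differ from each other was not tested.

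Of the members, 44 were at 0 in both libraries of preparation 1. Against a floor of 3 counts per library, Ighv5-4 (1843 and 1898 counts in preparation 2) was at least 767-fold higher in preparation 2. Ighv1-59 (1709 and 1763 counts) was at least 712-fold higher and Ighv1-74 (1674 and 1465) at least 640-fold higher. In the kappa locus Igkv3-4 (1878 and 1768 counts) was at least 745-fold higher, Igkv3-2 (1326 and 1282) at least 534-fold and Igkv2-112 (1195 and 950) at least 436-fold. These are bounds from counting error only. Of members with counts in both preparations, the fold reached 1824 for Ighv1-55 and 1853 for Igkv6-15.

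Members that did not follow were few and were mostly annotated pseudogenes. Ighv1-14, a pseudogene, had 0 counts in both libraries of preparation 2 and 28 with DKK1 and 37 with PBS in preparation 1, at least 8.82-fold lower in preparation 2 (adjusted p = 0.0370 in edgeR). This call was lost with no filter on low counts (adjusted p = 0.111 in edgeR) and without any 1 of the 4 libraries (0.0589 to 0.0991). Its window above differs at 3 bases from that of Ighv1-64. Ighv3-2, a pseudogene, had 19 and 12 counts in preparation 2 and 17 and 40 in preparation 1 (adjusted p = 0.6997), and Ighv3-5 had 28 and 23 in preparation 2 and 8 and 5 in preparation 1 (adjusted p = 0.0548). The 4 Ighv pseudogenes together held 0.0485% and 0.0710% of the Ighv counts in preparation 2 (DKK1, PBS), against 7.58% and 9.30% in preparation 1. Ighv1-14, Ighv3-2 and Ighv3-5 were chosen after their values were seen.

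The 3 members not tested were Ighv1-56 with 8 and 47 counts in preparation 2 and 0 in preparation 1, Igkv4-77 with 41 and 4 in preparation 2 and 8 and 4 in preparation 1, and Ighv4-2. Just inside the threshold were Igkv4-54, with 15 and 27 counts in preparation 2 and 0 in preparation 1, and the pseudogene Ighv4-2, with 0 and 2 in preparation 2 and 10 and 36 in preparation 1. Just outside it were Ighv12-3, with 22 and 6 counts in preparation 2 and 0 and 8 in preparation 1, and Ighv8-6, with 10 and 25 in preparation 2 and 0 and 1 in preparation 1.

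The members are spread over both loci. On chromosome 12 the Ighv members span chr12:113578504-116000461, from Ighv5-2 at 149 kb to Ighv1-85 at 2571 kb from the mean position of the Ighj genes, all on the minus strand like the J genes. On chromosome 6 the Igkv members span chr6:67555497-70704177, from Igkv3-1 at 19.4 kb to Igkv2-137 at 3167 kb from the Igkj genes, 33 on the plus strand of the J genes and 53 on the minus strand. In the heavy chain locus, the 27 members more than 1768 kb from the J genes held 42.9% of the counts with DKK1 and 43.1% with PBS in preparation 2. In preparation 1 these members held 29.3% with DKK1 (26.2 to 32.6) and 35.3% with PBS (32.8 to 38.0). The 37 members within 956 kb held 28.0% and 28.3% in preparation 2, against 41.6% and 38.2% in preparation 1. The farthest members thus held more of the usage in preparation 2 and the nearest more in preparation 1. Neither part overlapped between the libraries of the preparations. The 31 members between them held 29.2% and 28.5% in preparation 2 and 29.0% and 26.5% in preparation 1, which overlapped. Among the farthest, Ighv1-64 held 9.80% and 10.4% in preparation 2, against 2.96% and 1.94% in preparation 1. Ighv1-55, also there, held 5.82% and 5.60%, against 0% and 0.62%. The distal share without these segments, and the part of the families in it, was not tested.

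In the kappa locus the 36 members within 1069 kb of the J genes held 43.2% and 43.9% in preparation 2 (DKK1, PBS) and 40.3% and 40.6% in preparation 1. The 22 members more than 2118 kb away held 30.5% and 30.1% in preparation 2 and 37.0% and 27.3% in preparation 1, so the preparations overlapped. Members on the strand of the J genes, which join by deletion and not by inversion, held 41.9% and 42.2% in preparation 2 and 45.5% and 40.1% in preparation 1.

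**Figure D5:**
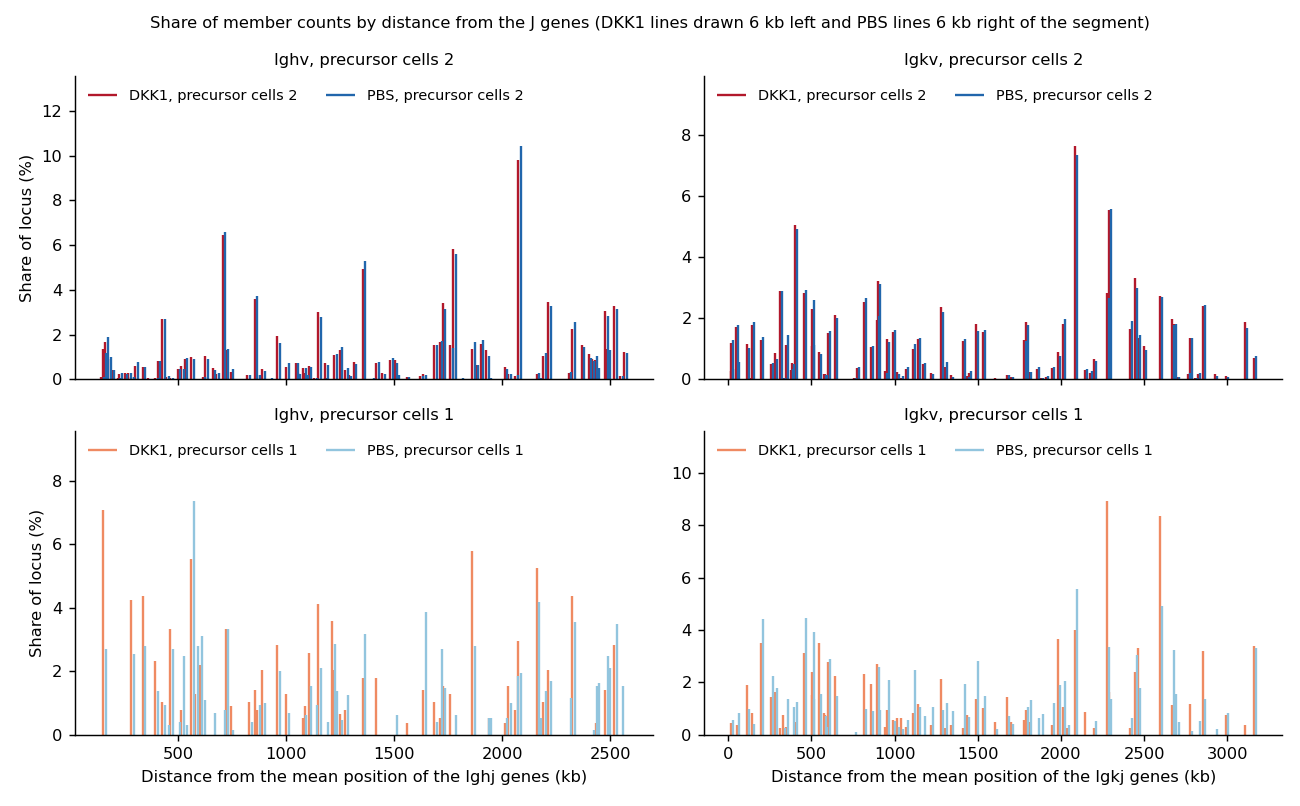
Share of each segment in the member counts of its locus (percent) against its distance from the mean position of the J genes (kb), with 1 panel per locus and precursor cells and 1 line per segment and library (DKK1 drawn left of PBS). In precursor cells 2 the same tall lines appear under both treatments, led by Ighv1-64 (9.80% and 10.4%) and Igkv10-96 (7.65% and 7.35%), and in precursor cells 1 other segments lead.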

How the data were processed

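RNA-seq gene counts of 4 libraries were used as deposited: whole-number counts per gene without normalization, in the table the authors deposited. Per the submitters' processing notes, fastp and HISAT2 were used with mm10; which program counted, with what strand setting and annotation, is not given in the sources used here, so a count may be an estimate made from coverage. For 1 library against 1, per the file headers, the tables the authors deposited give log2 ratios, p-values and FDR (test not stated), and FPKM, which the authors normalized for length and depth and which were not used.

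Ighv and Igkv names were taken from the count table; all 181 members were found by ID in GENCODE M21. CPM is the count scaled to the library total, and shares are of the member counts of a locus, with Wilson 95% intervals; intervals and the floor of 3 counts per library cover counting error only. The model was edgeR 4.0.16 quasi-likelihood in R 4.3.3 (TMM scaling, filterByExpr, terms for precursor cells and treatment, 1 residual degree of freedom, Benjamini-Hochberg over all 17462 genes, threshold 0.05); DESeq2 1.42.0, limma-voom 3.58.1 and other settings were alternatives. It was repeated with members summed per locus and per family. Each SE is the absolute log2 change divided by the square root of the quasi-likelihood F. It is thus not the spread between the values of the 2 pairs. The labels number the cells 1 and 2 under each treatment and name 2 mice without saying which mouse has which number; the number was taken as a preparation given both treatments, on which the pairs rest. As a check, libraries of 1 number deviated together from the means of their groups (r = 0.726 over genes), and the first principal component held 76.1% of the variance. Anything else that libraries of 1 number share would give such an r, so it does not show that a number is 1 preparation. The scripts were tested on simulated data. V models were compared with BLAST 2.17.0 (alignments of at least 200 bases).

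Named segments are the 10 leading ones per locus, those with the smallest p for DKK1, the 3 largest changes between preparations per locus and direction (called, at least 400 counts), leading members of families over 5%, leading segments per library and those next to the threshold; exceptions are stated. No segment of at least 400 counts was called lower in precursor cells 2. The members and lists were chosen with earlier results of these data known.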

Additional observations from a re-analysis of the deposited data

How the results depend on the processing

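The Ighv and Igkv sums and 39 of 44 named segments tested kept their direction and their side of the threshold between preparations under the alternatives run. These were other scalings, filters, DESeq2, limma-voom, no replicate block and 1 library left out. Many of the 44 were named for large counts or large changes between preparations, so this result follows in part from their choice. The calls of Ighv1-14 and Igkv4-54 were lost with no filter on low counts and without any 1 library, that of Ighv2-6-8 with no filter and without DKK1 replicate 2. Ighv3-5 was called with no replicate block (adjusted p = 0.0274 in edgeR) and with a stricter filter (0.0476), and Ighv3-2 came to 0.33 on the log2 scale without PBS replicate 1. Members tested were 178, or 181 with no filter. Of 17462 genes tested, 3125 rose and 2780 fell with the block, and 3198 and 2914 without it. With no filter, 1901 rose and 1606 fell of 26361. DESeq2 gave 2632 and 2039 of 17462, and limma-voom 3051 and 2709. With summed families and no filter, 1743 rows rose and 1572 fell of 26211. The number of members called was 176 in the fit with the replicate block, 177 with no replicate block, 157 with no filter on low counts, 169 by DESeq2, 173 by limma-voom and 156 to 169 without 1 library. Summed into families, 31 of 31 were called, 27 with no filter, 30 by limma-voom and 27 to 31 without 1 library. For DKK1 against PBS the count was 0 under all of them, also with no replicate block, with 0 to 7 members at an unadjusted p under 0.05. The log2 change of the Ighv sum with DKK1 was -0.31, and -0.05 with no replicate block; it was 0.95 without DKK1 replicate 1 and 5.79 without PBS replicate 2, with a range of -6.57 to 5.79 without 1 library. That of the Igkv sum was -0.12, and -0.02 with no replicate block; it was 0.97 without DKK1 replicate 1 and 5.25 without PBS replicate 2, with a range of -5.52 to 5.25. With 3 libraries and no block, such values hold the difference between preparations. In the same way Ighv2-6-8 came to -6.87 without DKK1 replicate 2, Igkv4-61 to 0.45 without DKK1 replicate 1 and 3.64 without PBS replicate 2, Igkv6-14 to -4.22 without DKK1 replicate 2 and -0.58 without PBS replicate 1, and Igkv6-17 to 0.59 without DKK1 replicate 1 and 4.94 without PBS replicate 2.

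Values below run DKK1 then PBS of preparation 2, then of preparation 1. As the exponential of the Shannon entropy, a wider measure by construction, the effective number was 47.9, 47.2, 36.1 and 45.2 for Ighv. For Igkv it was 50.9, 51.2, 43.0 and 50.2. With members of at least 400 summed counts it was 29.6 for Ighv with DKK1 in preparation 2 and 23.0 and 27.4 in preparation 1, and for Igkv 37.5 and 35.2 in the PBS libraries. In the DKK1 library of preparation 2 the Ighv value was 29.8 when thinned and 32.0 per kb of exon. In the DKK1 library of preparation 1 it was 31.5 with all segments counted and 27.0 without pseudogenes, and the 10 leading Ighv segments held 46.1% and 51.3%. With at least 400 summed counts those 10 held 47.8% with DKK1 in preparation 2 and 56.8% and 48.1% in preparation 1, and the 10 leading Igkv segments 42.2% in the PBS library of preparation 1. Of 20 leading segments, DKK1 and PBS shared 18 (Ighv) and 16 (Igkv) in preparation 2 and 13 and 11 in preparation 1. The cause of these shifts was not tested. Preparation 1 limits the depth: 778 to 1906 counts per locus and library leave wide intervals on their shares.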
